A study of Drosophila melanogaster with 2 samples.

Results

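The vacuolar H+-ATPase (V-ATPase) genes of Drosophila melanogaster were described here by the amount of dBigH1, the germline linker histone, recovered on each of them from testis chromatin. They were chosen by symbol, as every gene of the deposited table whose symbol starts with Vha, which gave 32 of 15421 genes. The table came from 2 libraries made from whole testes of adult w1118 males, a stock that carries a mutant white gene. One was a chromatin immunoprecipitate with an antibody to dBigH1 and the other was input DNA with no antibody, and neither had a treatment. There was 1 library of each kind, so nothing below has a replicate, and all comparisons describe these libraries only. Testes were fixed, cleared of accessory glands by hand and sonicated in pools of 1000, so the chromatin of germ cells and of the somatic cells of the testis was mixed. Since DNA and not RNA was measured, the tissue could not be checked against expressed markers, and nothing below reports how strongly a gene was transcribed.

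The V-ATPase is a rotary proton pump. Its cytosolic sector, V1, hydrolyses ATP on subunits A and B and turns a central stalk of D and F, while E, G, C and H hold the outer ring still. The turning stalk drives the membrane sector, V0, in which protons pass between subunit a and a ring of c and c″, with d joining the ring to the stalk and the small subunit e beside it. The pump acidifies lysosomes, endosomes and secretory vesicles, and in insects it also energises transport across epithelia such as the Malpighian tubule. In mammals it acidifies the acrosome of sperm. In flies several subunits are encoded by more than one gene: one copy is expressed in most tissues, and the other copies are known mainly from particular tissues or have lower expression.

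The dBigH1 library held 2864636 reads and the input library 12747726. A gene's level is given as RPKM, its reads divided by its length in kb and by the library total. Its read ratio is the log2 ratio of dBigH1 reads over input reads, each scaled by its library total, minus the same value of the median gene. A read ratio of 0 is therefore the median gene of the table, and that gene measures -1.005 before this centring. Reads summed over the listed genes came to 1191816 in dBigH1 and 8084299 in input, a smaller part of the dBigH1 library than of the input library. That difference enters the -1.005, which is thus no measure of dBigH1 loss at a typical gene. Each ratio carries a 95% exact Clopper-Pearson interval, which covers counting error only and takes each read as a separate molecule. Reads were not marked as separate molecules, so an interval is too narrow where PCR copies were counted. The 32 genes had 2 to 183 dBigH1 reads (median 17.0) and 42 to 1251 input reads (median 188). Under 10 dBigH1 reads fell on 7 of the members, for which only large differences could be seen.

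As a set, the V-ATPase genes lay close to the median gene. Their median read ratio was -0.13, with quartiles of -0.36 and 0.10, against a median of 0 and quartiles of -0.40 and 0.38 for all genes. Of the 32 genes, 12 were above the median gene and 20 below it. Their reads summed to 1122 from dBigH1 and 10158 from input, a ratio of -0.020 (-0.11 to 0.07). Reads summed over all genes gave a ratio of 0.40 (0.39 to 0.40). The members' sum was thus near the median gene but below the sum over all genes. Vha14-2 and Vha16-4, or 6.25% of the members, exceeded the median gene 1.5-fold or more, against 16.2% of all genes. Vha16-2, Vha68-3, VhaAC45, Vha36-1 and Vha100-4, or 15.6%, lay 1.5-fold or more below it, against 17.3% of all genes. Few members thus stood above the median gene by this fold, and the share below it was near that of all genes.

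**Figure D1:**
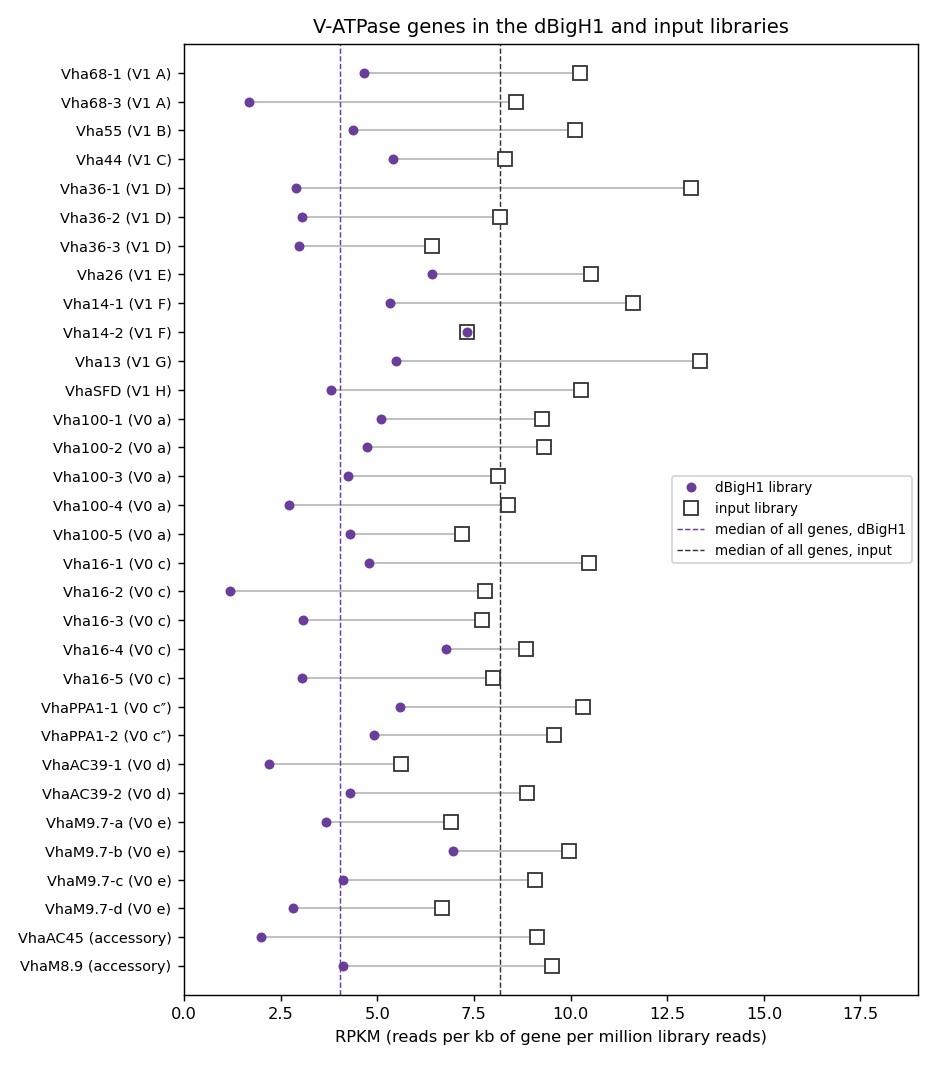
RPKM of each V-ATPase gene in the dBigH1 library (filled circles) and in the input library (open squares), joined by a line, with dashed lines at the median of all genes (4.04 in dBigH1 and 8.18 in input). Genes run down the page by sector and subunit. Only at Vha14-2 do the symbols lie on each other, while Vha16-2 and Vha68-3 have the lowest dBigH1 values.

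Intervals told more than the fold for genes with many reads. They lay wholly above the median gene for Vha14-2 and Vha44, or 6.25% of members, against 17.9% of all genes. They lay wholly below it for Vha68-3, VhaAC45, Vha36-1, Vha100-4 and VhaSFD, or 15.6%, against 9.41% of all genes. For the other 25 members the interval spanned the median gene. Members just beyond the fold were Vha16-4, at 0.62, and Vha100-4, at -0.63. Those just short of it were VhaM9.7-b, at 0.49, and VhaSFD, at -0.43. Vha14-2 was the single member whose RPKM in the dBigH1 library was at least its input RPKM, or 1 of 32, against 7.61% of all genes.

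Among V1 genes, those of subunits A and B had read ratios below that of the median gene. Vha68-3 (FBgn0032464, chromosome 2L, 12978786 to 12981301, plus strand, build dm3), a paralog for subunit A, had 12 dBigH1 reads against 275 input reads, or 1.66 RPKM against 8.57. Its read ratio of -1.36 (-2.33 to -0.53) placed it at percentile 3.04 of all genes. Its paralog Vha68-1 (FBgn0020368, chromosome 2L, 13000765 to 13004142) had 45 reads in dBigH1 and 441 in input, a ratio of -0.13 (-0.61 to 0.31). The single gene of subunit B, Vha55 (FBgn0005671, chromosome 3R, 8449484 to 8453551), had 51 reads against 525, a ratio of -0.21 (-0.65 to 0.21). Of these genes only Vha68-3 was separated from the median gene. The broadly expressed gene for subunit A has no symbol in the table, where it is described as V-ATPase 69 kDa subunit 2 (FBgn0263598), and so was not among the 32. It had 50 dBigH1 reads against 572 input reads, a ratio of -0.36 (-0.80 to 0.06).

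The highest and one of the lowest members were both genes of the central stalk. Vha14-2 (FBgn0037402, chromosome 3R, 1948314 to 1950127, plus strand), a paralog for subunit F, had 38 dBigH1 reads against 169 input reads, or 7.31 RPKM in each library. Its ratio of 1.01 (0.46 to 1.52) was 2.01-fold above the median gene, at percentile 92.4. The ubiquitous gene of subunit F, Vha14-1 (FBgn0262512, chromosome 2R, 11566931 to 11567585), had 10 reads against 97 and lay at -0.12 (-1.22 to 0.82).
For subunit D the ubiquitous gene was the lower one. Vha36-1 (FBgn0022097, chromosome 2R, 11428922 to 11430003, plus strand) had 9 dBigH1 reads against 181 input reads, or 2.90 RPKM against 13.1. Its ratio was -1.17 (-2.32 to -0.21), at percentile 4.52. Its paralogs lay nearer to the median gene, Vha36-2 with 12 reads against 143 at -0.42 (-1.40 to 0.43) and the X-linked Vha36-3 with 9 against 86 at -0.10 (-1.27 to 0.89).

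The genes of the outer stalks and of the subunits that bind them are single-copy and lay on both sides of the median gene. Vha44 (FBgn0262511, chromosome 2R, 12212318 to 12224142), which encodes subunit C, a regulator of the joining of V1 to V0, was the longest member and had the most reads, 183 from dBigH1 against 1251 from input. It was separated from the median gene, at 0.39 (0.15 to 0.61). Set against the median of genes within 1.5-fold of its length, it was higher by less, at 0.18. Vha26 (subunit E) had 54 reads against 394 and a ratio of 0.29 (-0.15 to 0.70). Vha13 (subunit G) had 18 against 195, at -0.28 (-1.06 to 0.42), and had the highest input level of all members, 13.3 RPKM. VhaSFD (FBgn0027779, chromosome 2L, 16723138 to 16727825), which encodes subunit H, had 51 reads against 613. Its ratio of -0.43 (-0.87 to -0.02) was below the median gene by less than 1.5-fold, with an upper bound close to 0.

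Among V0 genes, the 5 genes of subunit a, which forms the proton path with the ring, held the most reads. Vha100-1, the copy known from neurons and synaptic vesicles, had 101 dBigH1 reads against 818 input reads and lay at 0.14 (-0.17 to 0.44). The broadly expressed Vha100-2 (FBgn0028670, chromosome 3R, 14216045 to 14224891) had 120 reads against 1050 and was at 0.03 (-0.26 to 0.30). Both were within counting error of the median gene, as were Vha100-3, with 33 reads against 281, and Vha100-5, with 64 against 477, at 0.07 and 0.26. Vha100-4 (FBgn0038613, chromosome 3R, 14212555 to 14215525) was the exception. It had 23 reads against 317, or 2.70 RPKM against 8.37, and a ratio of -0.63 (-1.31 to -0.02).

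The genes of the proton-binding ring were mostly short and poorly covered. Vha16-1 (FBgn0262736, chromosome 2R, 2512747 to 2520633), the ubiquitous gene of subunit c and the only long one, had 108 dBigH1 reads against 1052 input reads and lay at -0.13 (-0.42 to 0.16). Its paralogs had 2 to 11 dBigH1 reads each. The lowest member of all, Vha16-2 (FBgn0028668, chromosome 3L, 11468058 to 11468652), had 2 reads against 59, or 1.17 RPKM against 7.78. Its ratio of -1.72 had an interval of -4.80 to 0.19, which reached past the median gene. Vha16-4 (FBgn0262513, chromosome 2R, 12835163 to 12835729), with 11 reads against 64, stood at the other end at 0.62, and its interval of -0.45 to 1.55 spanned the median gene too. Vha16-3 and Vha16-5 were at -0.32 and -0.38 on 6 and 11 dBigH1 reads. The c″ genes VhaPPA1-1, with 28 reads against 230, and VhaPPA1-2, with 9 against 78, were at 0.12 and 0.04. No gene of the ring was thus separated from the median gene by its interval.

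The remaining V0 genes encode subunits d and e. VhaAC39-1, the X-linked ubiquitous gene of subunit d, had 14 dBigH1 reads against 159 input reads, at -0.35 (-1.25 to 0.44), and VhaAC39-2 had 16 against 147, at -0.04 (-0.89 to 0.71). The 4 genes of subunit e were among the shortest, at 494 to 1354 bp. VhaM9.7-b, the broadly expressed one, was the highest of them, with 27 reads against 172 and a ratio of 0.49 (-0.16 to 1.08). VhaM9.7-a, VhaM9.7-c and VhaM9.7-d lay between -0.23 and 0.09 on 4 to 10 dBigH1 reads. All of these intervals spanned the median gene.

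Of the accessory genes, VhaAC45 lay below the median gene with its whole interval and VhaM8.9 did not. VhaAC45 (FBgn0262515, chromosome 2R, 5095067 to 5097169, plus strand), whose product is a glycoprotein that associates with V0, had 12 dBigH1 reads against 245 input reads, or 1.99 RPKM against 9.14. Its ratio was -1.19 (-2.17 to -0.36), at percentile 4.31. VhaM8.9, the fly gene of the prorenin receptor, had 23 reads against 237 and a ratio of -0.21 (-0.89 to 0.41). CG31030, which the RefSeq table names VhaAC45RP and which is not among the 32, had 19 reads against 186 and lay at -0.13 (-0.90 to 0.55).

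**Figure D2:**
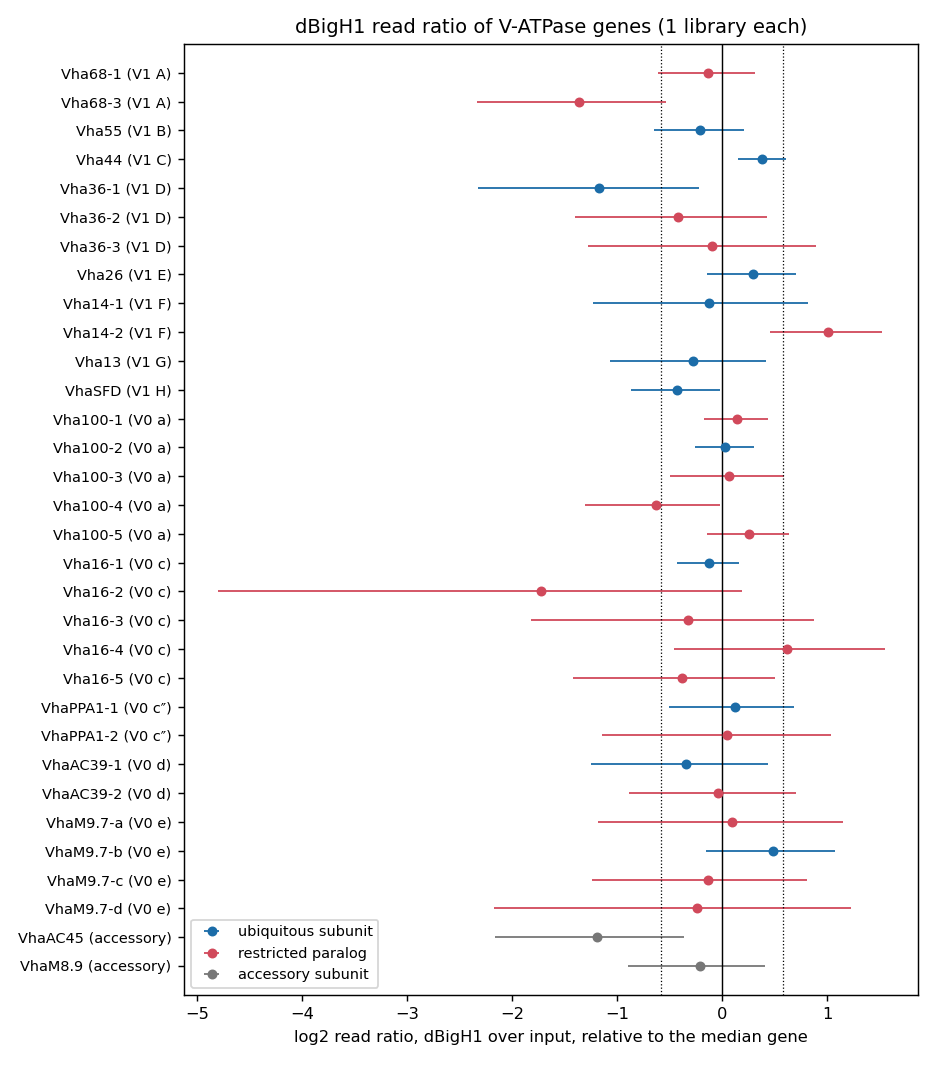
Read ratio of each V-ATPase gene (log2 dBigH1 over input, relative to the median gene) with its 95% exact interval for counting error, by subunit and coloured by class; dotted lines mark 1.5-fold on each side of the median gene. Vha14-2 and Vha44 lie to the right of 0 with their whole interval, and Vha68-3, Vha36-1, VhaSFD, Vha100-4 and VhaAC45 to the left.

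The V1 and V0 sectors were not separated by counting error on summed reads, and their medians differed by little. The 12 V1 genes had a median of -0.17 (range -1.36 to 1.01) and the 18 V0 genes a median of -0.01 (range -1.72 to 0.62), a difference of -0.16. Above the median gene were 3 of 12 V1 genes and 9 of 18 V0 genes. V1 genes together had 492 dBigH1 reads against 4370 input reads, a ratio of 0.01 (-0.13 to 0.14). V0 genes had 595 against 5306, a ratio of 0.002 (-0.12 to 0.12), where all genes summed gave 0.40. The summed ratios of V1 and V0 differed by 0.006, with an exact interval of -0.18 to 0.19. The extremes within each sector were farther apart than the sectors: both the highest member, Vha14-2, and the second lowest, Vha68-3, belong to V1. Sums are carried by long genes, and Vha44 alone gave 183 of the 492 V1 reads.

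Ubiquitous subunits and restricted paralogs had medians close together. The 12 ubiquitous genes were the single-copy subunits B, C, E, G and H and the broadly expressed copies Vha36-1, Vha14-1, Vha100-2, Vha16-1, VhaPPA1-1, VhaAC39-1 and VhaM9.7-b. Their median ratio was -0.12 (range -1.17 to 0.49). The 18 other paralogs had a median of -0.12 as well (range -1.72 to 1.01), and the difference of the medians was -0.01. On summed reads, 673 dBigH1 against 5919 input in ubiquitous genes and 414 against 3757 in restricted paralogs, the difference was 0.05 (-0.14 to 0.24). Both members beyond 1.5-fold above the median gene were restricted paralogs, or 11.1% of that class, against 16.2% of all genes. Beyond 1.5-fold below it were 3 restricted paralogs, or 16.7%, against 17.3% of all genes. Vha36-1 was the only ubiquitous gene beyond 1.5-fold below it, or 8.33% of that class. The spread over genes was 0.63 (SD, n = 18 genes) in restricted paralogs and 0.44 (SD, n = 12 genes) in ubiquitous genes. Restricted paralogs also had fewer reads, a median of 11.5 dBigH1 reads against 39.5 in ubiquitous genes, and the part of counting error in their wider spread was not tested. Within V1 the medians were -0.21 in the 7 ubiquitous genes and -0.13 in the 5 restricted paralogs. Within V0 they were 0.03 in the 5 ubiquitous genes and -0.04 in the 13 restricted paralogs.

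The levels in each library differed more between the classes than the ratios did. In the dBigH1 library ubiquitous genes had a median of 5.05 RPKM and restricted paralogs 3.90 RPKM. In the input library the medians were 10.3 RPKM and 8.15 RPKM. Of ubiquitous genes 11 of 12 had an input RPKM above that of the median gene of the table, 8.18, against 8 of 18 restricted paralogs, and VhaAC39-1 on the X was the exception. The classes thus differed in the same direction in both libraries, and the ratio between libraries was close to equal. Males carry a single X, and the X-linked members VhaAC39-1 and Vha36-3 had 2.20 and 2.98 RPKM in dBigH1 and 5.61 and 6.40 RPKM in input, the input values being the lowest of all members. All genes on the X had medians of 2.17 RPKM in dBigH1 and 4.74 RPKM in input, and a median read ratio of -0.12. Both members were thus above the X median in input and at or above it in dBigH1.

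**Figure D3:**
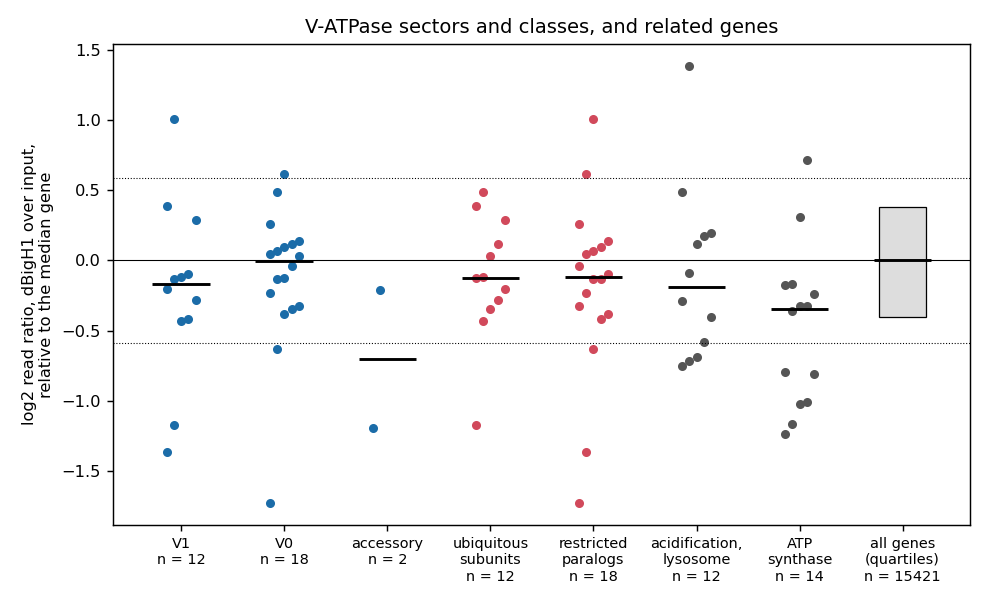
Read ratio (log2, relative to the median gene) of single genes by V-ATPase sector (blue), by class (red) and in 2 related lists (grey), with a bar at each median; the box spans the quartiles of all 15421 genes and dotted lines mark 1.5-fold. The medians of V1, V0, ubiquitous and restricted genes lie between -0.17 and -0.01, and that of ATP synthase genes at -0.34.

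Paralogs of one subunit were then compared directly, as the difference of their read ratios with an exact conditional interval. There were 33 such pairs, and the interval excluded 0 for 5 of them, at a level where up to 5% of intervals miss by counting error alone. The pairs share genes and so are not independent. Pairs of other genes were not compared, so whether this share is particular to paralogs is not known. Vha14-2 exceeded Vha14-1 by 1.13 (0.01 to 2.36), a difference whose lower bound was just above 0. Vha68-1 exceeded Vha68-3 by 1.23 (0.25 to 2.30). Vha100-4 stood below Vha100-5 and Vha100-1, which exceeded it by 0.89 (0.14 to 1.67) and 0.77 (0.07 to 1.51). The fifth pair, Vha16-4 over Vha16-2 at 2.34 (0.05 to 5.60), rested on 11 and 2 dBigH1 reads. In subunit D, Vha36-3 exceeded the ubiquitous Vha36-1 by 1.07, but with an interval of -0.49 to 2.63. No difference was detectable between the d genes (0.31, -0.88 to 1.5) or between the c″ genes (0.08, -1.12 to 1.41), and these intervals leave room for differences of more than 2-fold.

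Several paralogs lie near each other. On 2L, Vha68-3 starts 170 bp after the gene of the 69 kDa subunit 2 and Vha68-1 follows 19463 bp later, with CG12404, at 0.12, in between. The A subunit genes along this stretch were at -0.36, -1.36 and -0.13, so the lowest value belonged to Vha68-3. On 3R, Vha100-4 (-0.63) and Vha100-2 (0.03) are 519 bp apart. On 3L, Vha16-3 and Vha16-2 are 985 bp apart, and on 3R VhaPPA1-2 and VhaPPA1-1 are separated by 2048 bp that hold RpS5b, at 0.04. Of the 32 members, 8 overlap another listed gene, so part of their reads may be shared. Vha100-3 lies wholly within sano and VhaM9.7-c wholly within Teh2 and CG18675. For Vha100-2 the overlap with koko covers 24.6% of the gene and for Vha16-5 that with CG12299 covers 18.4%, and for the other 4 it is under 5%. Of the members beyond 1.5-fold, only Vha100-4 has an overlap, of 57 bp.

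Each member was also set against its nearest listed gene on either side that shares no base with it, with the reads of both flanking genes summed. The ratio of these flanks had a median of -0.02 and a range of -0.91 to 0.74. Member and flank ratios were hardly related, with Spearman's rho of -0.14 over the 32 members, some of which flank each other. The interval of the difference lay above 0 for Vha14-2, Vha44 and Vha100-2 and below 0 for Vha16-2, Vha68-3, VhaSFD, VhaAC45 and Vha100-4. This comparison was made for members only, so the share of all genes with such an interval is not known. Vha14-2 exceeded its flanks, with 12 dBigH1 reads against 115 input reads, by 1.11 (0.06 to 2.24). Vha44 exceeded its flanks by 0.65 (0.20 to 1.12) and Vha100-2, which has Vha100-4 as a flank, exceeded its own by 0.65 (0.12 to 1.20).
VhaSFD, modest against the median gene, lay farther below its flanks. These, the cytochrome c gene Cyt-c-p and FBgn0263746, were at 0.67 and 0.69, and VhaSFD lay 1.10 below them, as a difference of -1.10 (-1.65 to -0.57). Vha16-2, on 2 dBigH1 reads, differed from its flanks by -2.47 (-5.56 to -0.53), Vha68-3 by -1.30 (-2.30 to -0.42) and VhaAC45 by -0.96 (-1.95 to -0.09). For Vha16-2, chrb, 11997 bp away and at 0.79, held 211 of the 217 flank reads from dBigH1. Its nearer flank Vha16-3, 985 bp away, was at -0.32. For VhaAC45, hig, 18116 bp away and at -0.21, held 194 of the 221. Vha36-1 had flanks that were low as well, CG8187 at -0.42 and eIF2B-gamma at -0.66, and its difference of -0.65 from them had an interval of -1.91 to 0.47.

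**Figure D4:**
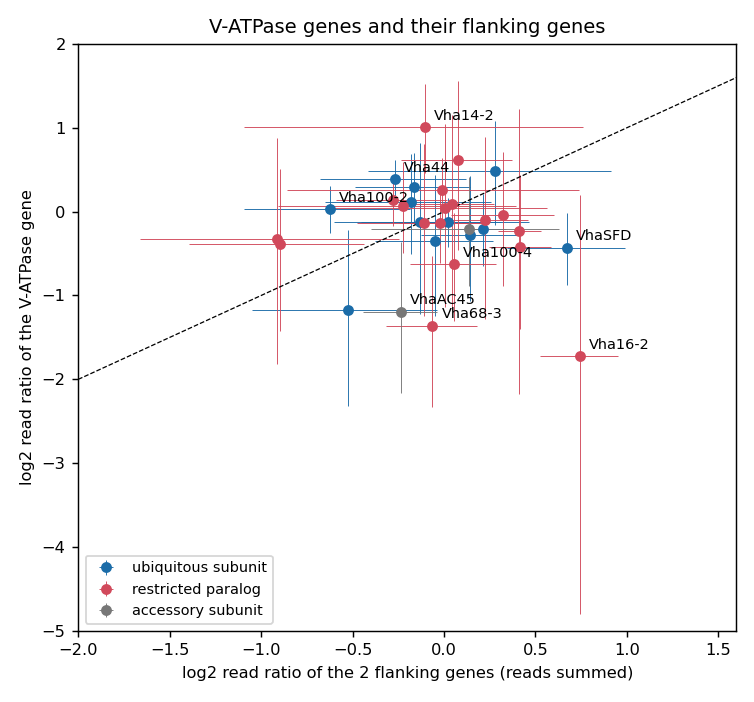
Read ratio of each V-ATPase gene (vertical axis) against that of its 2 flanking genes with reads summed (horizontal axis), both log2 relative to the median gene, with 95% exact intervals; the dashed line marks equal values. Names are given where the interval of the difference excludes 0: Vha14-2, Vha44 and Vha100-2 lie above the line and Vha16-2, Vha68-3, VhaSFD, VhaAC45 and Vha100-4 below it. The share of all genes with such an interval was not computed.

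The position of a member was only weakly related to its length and input level. Over the 32 members Spearman's rho of the read ratio was 0.13 with gene length and 0.01 with input RPKM, against 0.07 and -0.29 over all genes, where reads and lengths enter both measures. By chromosome arm, the median was -0.38 for 5 members on 2L, -0.12 for 8 on 2R, -0.13 for 5 on 3L and -0.01 for 12 on 3R. No member lies on the Y, on chromosome 4 or on a heterochromatin scaffold.

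Genes that act with the pump were taken from a list of 13 genes of organelle acidification and the lysosome, of which 12 were matched by symbol. Their median ratio was -0.19 (range -0.75 to 1.38), with 1 of 12 genes 1.5-fold or more above the median gene, against 16.2% of all genes, and 3 of 12 below it by that fold, against 17.3% of all genes. Mitf, which encodes the transcription factor that drives V-ATPase genes in flies, was the one above, with 253 dBigH1 reads against 865 input reads and a ratio of 1.38 (1.18 to 1.59). It lies on chromosome 4, unlike the 32 V-ATPase genes. Rbcn-3A, an X-linked gene of the rabconnectin complex that promotes assembly of the pump, had 71 reads against 946, at -0.58 (-0.95 to -0.23), and its partner Rbcn-3B had 41 against 484, at -0.40 (-0.90 to 0.06). Beyond 1.5-fold below the median gene were cathD, a lysosomal protease gene, at -0.75 (-1.68 to 0.06), the chloride channel family gene ClC-b at -0.72 (-1.34 to -0.15) and the sterol carrier gene Npc2a at -0.69 (-1.93 to 0.34). Lamp1, a lysosomal membrane protein gene, was at 0.49 (0.04 to 0.91). Of these 12 genes, 5 lay above the median gene and 7 below it.

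The mitochondrial ATP synthase, the related rotary enzyme that makes ATP, was the closest counterpart by function. V-ATPase genes had a median ratio of -0.13, with 20 of 32 below the median gene, and the 14 listed ATP synthase genes one of -0.34, with 12 of 14 below it. Lower by 1.5-fold or more were 15.6% of V-ATPase genes and 42.9% of ATP synthase genes, or 6 of 14, against 17.3% of all genes. By interval the lists were closer. Wholly below the median gene were 15.6% of V-ATPase genes and 21.4% of ATP synthase genes, or 3 of 14, against 9.41% of all genes. For 10 of the 14 the interval spanned the median gene, and 6 had under 10 dBigH1 reads. A single ATP synthase gene, or 7.14%, was above by that fold, against 16.2% of all genes. It was the catalytic gene ATPsyn-beta on chromosome 4, with 60 reads against 327, at 0.71 (0.29 to 1.11). Summed reads gave -0.020 (-0.11 to 0.07) for V-ATPase genes and -0.19 (-0.37 to -0.005) for ATP synthase genes. Without ATPsyn-beta the ATP synthase value was -0.37 (-0.58 to -0.16). All genes summed gave 0.40 (0.39 to 0.40). The median number of dBigH1 reads was 17.0 in V-ATPase genes and 10.5 in ATP synthase genes. Lowest of the ATP synthase genes were ATPsyn-b, at -1.23 (-2.71 to -0.07), and Oscp with 8 reads against 160, at -1.16 (-2.40 to -0.15).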

How the data were processed

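Chromatin of whole testes was profiled with 1 dBigH1 library and 1 input library. The submitters' processing notes name build dm3 and the tools Bowtie2, R 2.15, CASAVA 1.9 and FastQC 0.10. The rule that assigned reads to genes is not stated in those notes. Per the labels' protocols, chromatin was sonicated to 200 to 500 bp and libraries had 18 PCR cycles and single reads of 50 nt.

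Per the file headers, the authors deposited log2 RPKM values, and the values show that 1 was added before the log. With 1 subtracted and the smallest step taken as 1 read, all values (100% per library) fell within 0.01 of a whole read, against 2.00% (dBigH1) and 1.99% (input) without it. A deposited column, headed MAnorm log2 fold change, is a score with an SD of 0.999, and it was used as an alternative.

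Every listed gene has at least 1 read in each library, so read ratios need no pseudocount. Such a list favours high ratios among poorly covered genes. All 15421 genes set the median gene, whose ratio scaled by library totals was -1.005. No p-value was computed. Functions were tested on simulated reads. Python 3.11.15, numpy 2.4.6, pandas 2.3.3, scipy 1.17.1 and matplotlib 3.10.9 were used.

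All Vha genes are described. Classes and pathway lists come from general knowledge, and members and lists were chosen with earlier results of these data known. Neighbours and overlaps are named only beside a member. Sequences and called peaks were not used here. Gene names outside the table come from RefSeq (Release 6), for names only. Alternatives were other pseudocounts, filters, scales, centrings, summaries and classes.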

Additional observations from a re-analysis of the deposited data

How the results depend on the processing

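The list median of -0.13 became -0.26 on the MAnorm score (score units), -0.27 in the 9 members that reach 5 RPKM in each library when centred on the genes that passed, -0.020 on summed reads, -0.0018 relative to genes of like input RPKM and -1.13 without centring on the median gene. The difference of V1 and V0, -0.16, became -0.53 on the MAnorm score and lay between -0.23 and 0.006 under the other alternatives. The difference of ubiquitous and restricted genes, -0.01, became -0.36 on the MAnorm score and -0.41 with the RPKM filter, and lay between -0.12 and 0.16 otherwise. Over the members the score had a Spearman's rho of -0.64 with input RPKM. The RPKM filter moved the median gene up by 0.56, and on the centring of the report the same 9 members had a median of 0.29. Every member had at least 5.61 RPKM in input, so among members this filter selected by dBigH1 RPKM, which is part of the ratio. The values under it therefore cannot show whether the results hold at higher coverage. Vha14-2, Vha16-4 and Vha100-1 were the only restricted paralogs that passed it. The cause of the shifts on the score was not tested.

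The 2 members at least 1.5-fold above the median gene became 1 at 2-fold, with at least 10 dBigH1 reads or with log2(RPKM + 1), and 0 with a pseudocount of 5, with the RPKM filter or without centring. The 5 below it became 10 on the MAnorm score, 3 with at least 10 dBigH1 reads, 2 with the RPKM filter, 1 with a pseudocount of 5 and 29 without centring. The 2 with the RPKM filter, Vha13 at -0.84 and Vha14-1 at -0.68, were not among the 5. Both higher members passed both filters. The counts of higher members under these filters thus changed with the median gene, which the read filter moved up by 0.06. On the centring of the report, the members that passed held 2 higher genes under each filter, and 3 lower ones with the read filter and 0 with the RPKM filter. By construction a pseudocount shrinks ratios. Adding the 69 kDa subunit 2 gene and CG31030, chosen after seeing the data, gave medians of -0.13 (34 genes), -0.20 for V1 against V0 and -0.01 for the classes. Of 218 values of single members under 8 alternatives, 206 stayed within the half-width of the member's interval, and no member beyond 1.5-fold changed sign. This is a loose measure where reads are few: Vha16-2 went from -1.72 to -0.53 with a pseudocount of 5 and stayed within it. A member that failed a filter has no value there and could not change sign under it. Depth limits the 7 members with fewer than 10 dBigH1 reads. No paired analysis was possible because each group had 1 library.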

Other observations

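Input DNA was not even over the V-ATPase genes. Among autosomal members, input levels were 8.30 to 13.3 RPKM in the 11 ubiquitous genes (median 10.3) and 6.67 to 10.2 RPKM in the 17 restricted paralogs (median 8.18). The dBigH1 levels followed in the same direction, with medians of 5.33 RPKM in ubiquitous genes and 4.12 RPKM in restricted paralogs. The 14 ATP synthase genes, among them the X-linked l(1)G0230 and sun, had medians of 10.03 RPKM in input and 3.48 RPKM in dBigH1. The 12 ubiquitous V-ATPase subunits, with VhaAC39-1 on the X included, had medians of 10.3 and 5.05 RPKM. In dBigH1 l(1)G0230 and sun had 1.32 and 1.73 RPKM, and the ATP synthase genes off the X were not summarised apart. These are descriptions of 1 library each.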
